A study of Mus musculus with 18 samples.

Results

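The genes described here are the 10 AP-1 and BATF transcription factor genes Batf, Batf3, Jun, Junb, Jund, Fos, Fosb, Fosl1, Fosl2 and Maff. Members were taken by gene symbol from a list set with earlier results of these data known, and all 10 were found among the 45706 genes of the tables. All 10 were also among the 12255 genes that passed the filter on low counts. RNA-seq was performed on 18 libraries of CD8+ T cells from OT-I mice, whose T cell receptor recognises a peptide of ovalbumin. The strain of all libraries is listed as wild type. Repeat peptide stimulated cells received 10 ng/ml peptide daily for 5 days with IL-15 and IL-7, and peptide was kept in the culture until day 8. Single peptide stimulated cells met the peptide for 48 h and were then cultured without it. From day 5 to day 8, cells of both kinds were treated with DMSO or with 1 µM ibrutinib, an inhibitor of the kinase BTK, and live cells were lysed on day 8. This gave 4 repeat DMSO, 5 repeat ibrutinib, 5 single DMSO and 4 single ibrutinib libraries. The cultures came from 6 experiments, lettered A to F here. Each of A to D contributed all 4 groups, whereas E contributed a repeat ibrutinib library alone and F a single DMSO library alone. For B to E the genotype entry of the labels mentions a Btk knockout. Since the study's account of its RNA-seq includes no Btk deficient cells, the entry was taken to name the experiment only. Repeat stimulation was carried out in vitro, with purified cells of a single receptor specificity, and so models exhaustion outside a tissue.

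AP-1 is a dimer of basic leucine zipper (bZIP) proteins. JUN, JUNB and JUND can pair with each other or with FOS, FOSB, FOSL1 and FOSL2, whereas the FOS proteins need a JUN partner. BATF and BATF3 are small bZIP proteins without a transactivation domain of their own, which pair with JUN proteins and bind composite sites together with IRF4 or IRF8. MAFF is a small MAF protein that also lacks such a domain. T cell receptor signals induce Fos and Jun within minutes through MAP kinases, and AP-1 then binds together with NFAT at cytokine genes such as Il2. NFAT without AP-1 is known to favour dysfunction in T cells, BATF is known in exhausted CD8+ T cells, and overexpressed JUN is known to counter exhaustion in engineered T cells.

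Libraries held from 23445922 to 51995372 expected counts in total. The CD8 T cell marker genes Cd3e, Cd3d, Cd8a and Cd8b1 summed to between 1404 and 2519 TPM in every library, and Cd4, Cd79a and Csf1r stayed at or below 0.18 TPM. TPM is a level corrected for transcript length, so that genes can be compared. Within the CD8 sum, Cd8b1 had mean levels of 321 TPM in repeat DMSO, 344 in repeat ibrutinib, 819 in single DMSO and 944 in single ibrutinib. The B cell list summed to 1.15 to 2.28 TPM in repeat DMSO, 1.06 to 4.09 in repeat ibrutinib, 3.17 to 7.10 in single DMSO and 3.89 to 5.90 in single ibrutinib. Most of this came from Cd79b (0.96 to 7.08 TPM), which was lower with repeat than with single peptide (-1.56 with DMSO, edgeR adjusted p = 0.00187, and -1.15 with ibrutinib, edgeR adjusted p = 0.0138). Zbtb7b, the other gene of the CD4 T cell list, put the summed level of that list at 15.3 to 20.8 TPM in repeat DMSO, 5.21 to 15.8 in repeat ibrutinib, 1.00 to 5.60 in single DMSO and 1.74 to 3.79 in single ibrutinib. The 5 myeloid and dendritic markers summed to 2.79 to 5.08 TPM in repeat DMSO, 4.21 to 10.7 in repeat ibrutinib, 1.35 to 9.35 in single DMSO and 0.84 to 6.50 in single ibrutinib. The NK cell marker Ncr1 reached at most 1.16 TPM, and the red cell markers summed to at most 1.84. The part of other cells in the results was not tested. Experiment C stood apart for some of the genes, as described below.

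Jund and Junb were the most abundant members in all 4 groups, at mean levels of 284 and 156 TPM in repeat DMSO, 255 and 117 in repeat ibrutinib, 190 and 103 in single DMSO, and 208 and 91.0 in single ibrutinib. In repeat DMSO the order went on with Batf at 65.1 TPM, Batf3 at 56.7, Jun at 17.9, Fosl2 at 10.3, Fos at 5.48, Fosb at 3.06, Maff at 1.73 and Fosl1 at 0.95. The ranges of neighbours overlapped between Batf and Batf3 and from Fosl2 down to Fosl1, and were apart elsewhere in this group. In single DMSO the order was Jund, Junb, Jun at 72.8 TPM, Batf at 53.2, Fos at 7.92, Fosl2 at 5.31, Fosb at 4.53, Maff at 0.900, Fosl1 at 0.284 and Batf3 at 0.118. There, only Batf and the gene after it were apart. Batf3 thus moved from rank 4 with repeat peptide to rank 10 with single peptide, and Jun from rank 5 to rank 3.

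**Figure D1:**
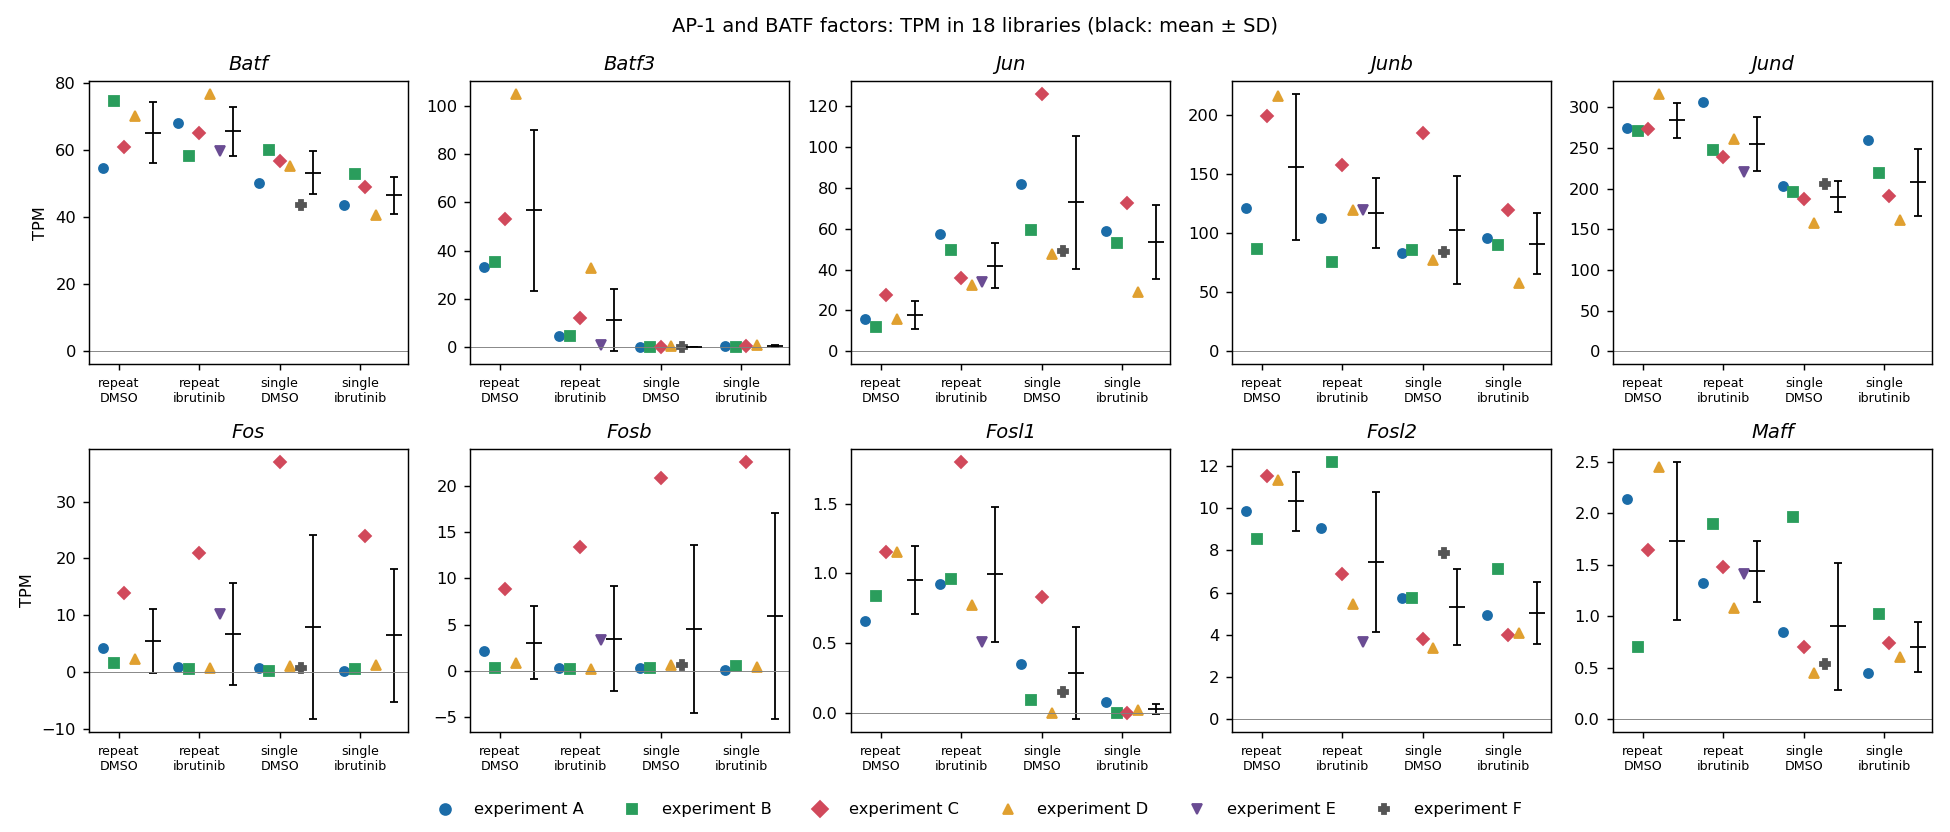
TPM of the 10 members in the 18 libraries, by group on the x axis, with a panel and a linear y axis for each gene. Symbols mark the experiment, and black bars give the mean ± SD of 4 or 5 libraries; Batf3 stayed below 1 TPM in all 9 single peptide libraries, and the highest Fos and Fosb values of every group came from experiment C.

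Calls below come from edgeR's quasi-likelihood test over all 12255 genes. To be called, a gene needed a Benjamini-Hochberg adjusted p under 0.05, 50 or more normalized counts on average and a log2 fold change beyond 0.2 in either direction. Fosl1 and Maff had mean normalized counts of 19.7 and 48.7, below that minimum, and could not be called at their depth. In bulk libraries, fewer cells with an RNA and less of that RNA per cell cannot be told apart.

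With DMSO, 4 of the 10 members were called for repeat against single peptide, where 47.0% of all tested genes were called. Batf3, Fosl2 and Jund were higher and Jun was lower with repeat peptide. For ibrutinib in repeat peptide stimulated cells 1 member, Jun, was called, where 5.92% of all genes were called. With the experiment as a block, 2 members (Jun and Batf3) and 1694 of the 12255 genes were called in this comparison. With single peptide edgeR called 0 members, with 3.04% of all genes called. There, 1 member (Fosl1) had an unadjusted p under 0.05, and DESeq2 called 0 as well. With ibrutinib in both, 1 member (Batf3) was called between repeat and single peptide, against 38.4% of all genes. With the block, 2 members (Batf3 and Fosl2) and 5950 of the 12255 genes were called. The interaction, the ibrutinib effect with repeat peptide minus that with single peptide, gave 0 calls among the members with edgeR, against 1.26% of all genes. For it, 3 members had an unadjusted p under 0.05 and DESeq2 called 1. The fit with the block called 2 members (Jun and Batf3) and 679 of the 12255 genes. Nothing particular to the members is read from these counts. The comparisons share control libraries, so their calls are not independent of each other.

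**Figure D2:**
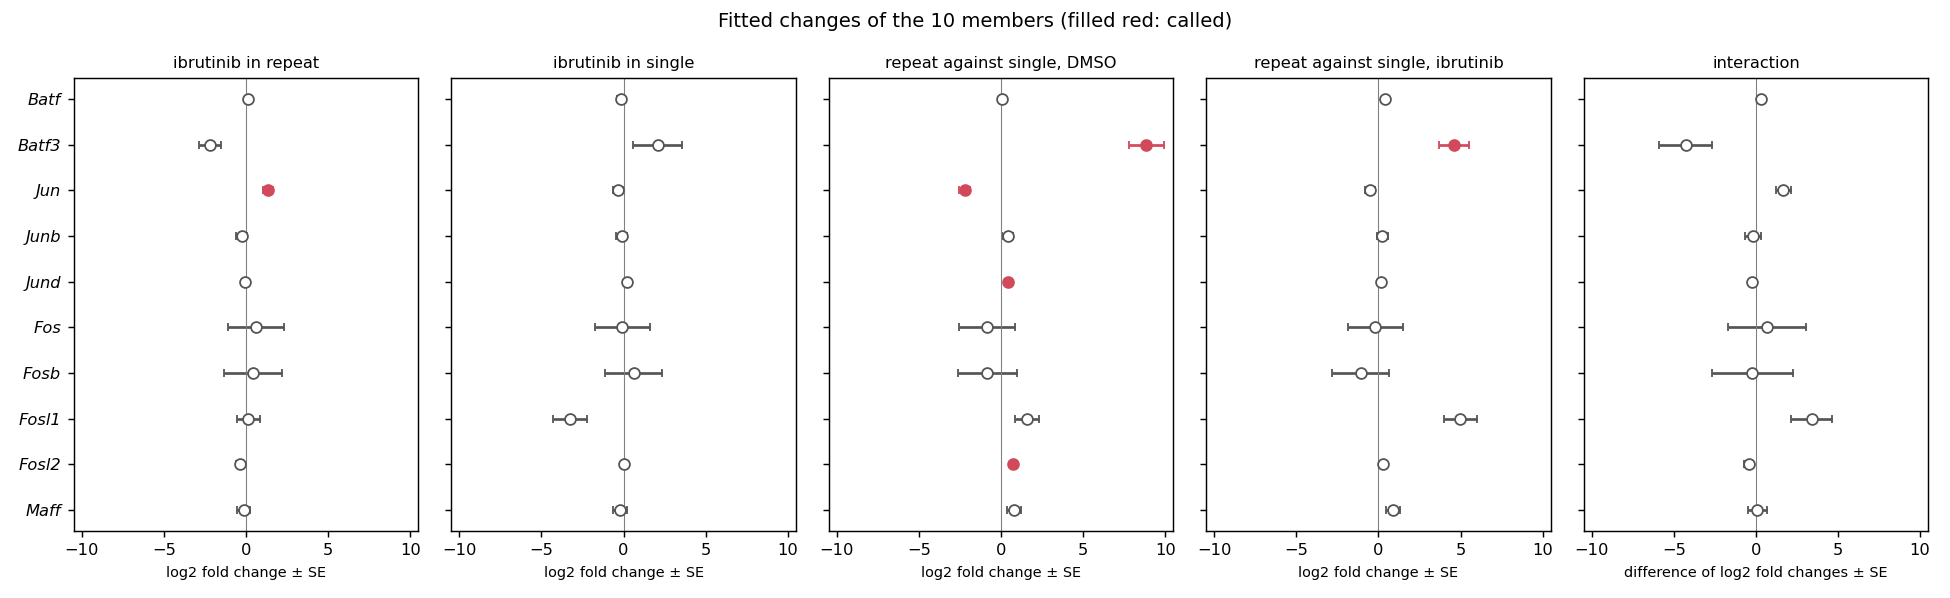
Fitted log2 fold change ± SE (x axis) of each member (y axis) in the 5 comparisons, with called members in filled red. Batf3 had the largest fitted value, 8.86 for repeat against single peptide with DMSO, and Fos and Fosb had the widest errors, with SE from 1.67 to 2.48.

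Jun encodes c-JUN, a strong transactivator among the JUN proteins, and lies at chr4:95049034-95052222 on the minus strand (GRCm38, GENCODE M21). Repeat peptide stimulated cells with DMSO held 15.9 TPM of Jun in experiment A, 11.99 in B, 27.8 in C and 15.7 in D. With ibrutinib the repeat peptide libraries held 57.3 TPM in A, 49.4 in B, 35.9 in C, 32.5 in D and 34.0 in E. The groups did not overlap, and each of the 5 ibrutinib libraries was above each of the 4 DMSO libraries. No overlap in normalized counts, in either direction, was found for 10.1% of all genes in this comparison, and Jun was the only member among them. Single peptide stimulated cells with DMSO held 81.9 TPM in A, 59.5 in B, 126 in C, 47.6 in D and 49.1 in F. With ibrutinib they held 59.1 TPM in A, 53.0 in B, 72.3 in C and 29.0 in D. These groups overlapped, as they did for all 10 members, whereas 6.39% of all genes had no overlap between single DMSO and single ibrutinib. The single DMSO libraries of Jun lay above all 4 repeat DMSO libraries.

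The means were 17.9 ± 6.86 TPM in repeat DMSO (SD, n = 4), 41.9 ± 11.0 in repeat ibrutinib (n = 5), 72.8 ± 32.7 in single DMSO (n = 5) and 53.4 ± 18.1 in single ibrutinib (n = 4). Jun was thus lower in repeat than in single peptide stimulated cells with DMSO, with a log2 fold change of -2.21 (SE 0.323, edgeR adjusted p = 1.84e-05). Ibrutinib raised it in repeat peptide stimulated cells by 1.32 on the log2 scale, or 2.50-fold (SE 0.312, edgeR adjusted p = 0.0147). Without the repeat DMSO library of experiment D this value was 1.296 and no longer called (edgeR adjusted p = 0.0552). With single peptide the log2 fold change with ibrutinib was -0.35 (SE 0.302, edgeR adjusted p = 0.712), which was not called. With ibrutinib in both, Jun differed between repeat and single peptide by -0.54 (SE 0.300, edgeR adjusted p = 0.157), which was not called either.

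Within each experiment that gave all groups, Jun was higher with ibrutinib in repeat peptide stimulated cells and lower with ibrutinib in single peptide stimulated cells. In log2 CPM (counts scaled to library size), the difference in repeat peptide stimulated cells was 1.89 in experiment A, 1.78 in B, 0.49 in C and 1.16 in D. With single peptide it was -0.38 in A, -0.22 in B, -0.56 in C and -0.71 in D. The interaction of 1.67 (SE 0.434) missed the threshold, with an edgeR adjusted p of 0.0702. With the experiment as a block it was 1.84 and called (edgeR adjusted p = 0.00332). In the fit with the block, experiments E and F add nothing to the comparisons, since each gave a single library. The interaction was also called by DESeq2 (1.69, adjusted p = 0.00483), without the repeat DMSO library of experiment C (1.96, edgeR adjusted p = 0.0395), without the single ibrutinib library of C (2.01, edgeR adjusted p = 0.0236) and without experiment C (1.99, edgeR adjusted p = 0.00445). The call of a difference between the ibrutinib effects on Jun therefore changed with these choices, while its sign was the same under each of them.

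**Figure D3:**
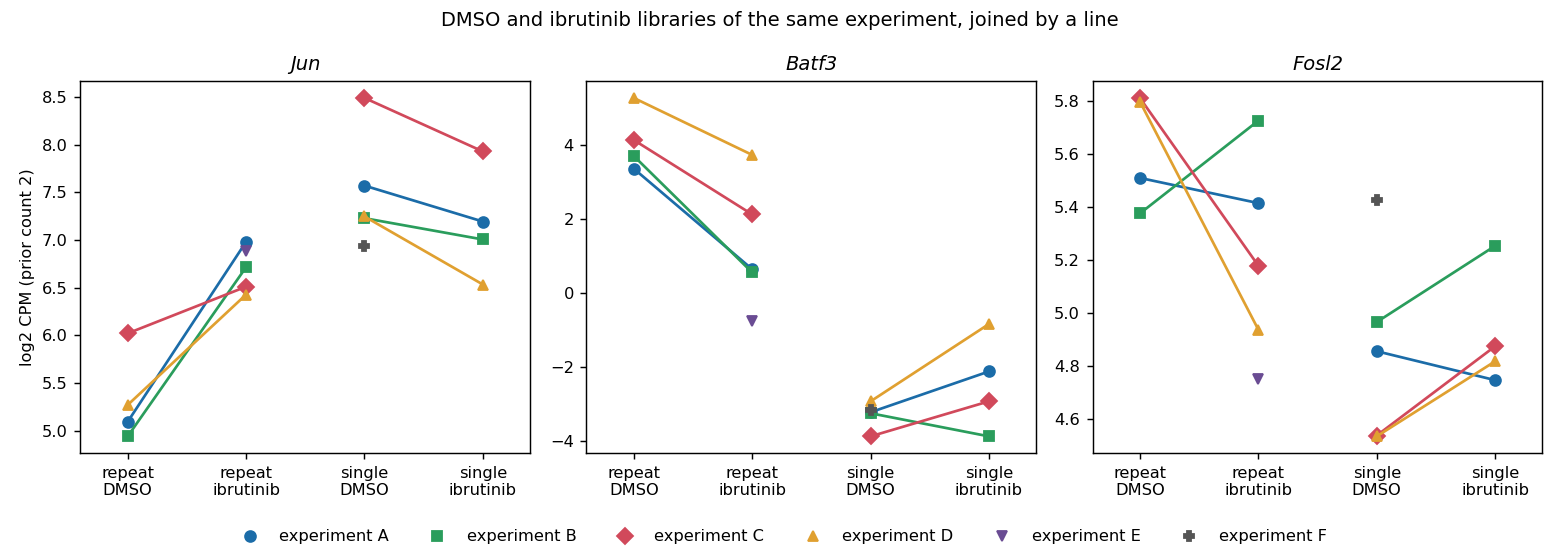
Log2 CPM (y axis, prior count 2) of Jun, Batf3 and Fosl2 by group (x axis), with a line joining the DMSO and ibrutinib libraries of the same experiment. All 4 lines of Jun rise in repeat and fall in single peptide stimulated cells, all 4 lines of Batf3 fall in repeat peptide stimulated cells, and those of Fosl2 run in both directions.

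The 250 bases before the RefSeq start of Jun are shown because Jun is the member called for ibrutinib in repeat peptide stimulated cells without a block and because JUN dimers bind sites of the searched kind. They lie at chr4:95052223-95052472 on the minus strand (GRCm38), and capitals mark a match to TGANNTCA.
Jun: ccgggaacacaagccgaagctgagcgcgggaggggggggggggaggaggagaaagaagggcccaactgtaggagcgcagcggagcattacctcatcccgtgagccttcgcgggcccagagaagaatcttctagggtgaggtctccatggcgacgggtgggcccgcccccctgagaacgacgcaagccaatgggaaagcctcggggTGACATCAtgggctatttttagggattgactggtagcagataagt
The marked TGACATCA runs from base -45 to -38, counted from the start at +1, and a second match to the same pattern, TGAGCTCA, lies at +3 to +10. TGANTCA (the AP-1 site), TGANNTCA (its form with a longer spacer, added after the other patterns), TGACGTCA (the cAMP response element, contained in TGANNTCA) and the CArG box (the site of SRF) were searched on both strands. Windows of 300 bases, from 250 before to 50 after the start, were given for 9 of the 10 members, 11 windows in all, and none for Fosl1. TGANNTCA was found for 3 members in 4 windows (Jun, Jund and 2 windows of Maff), and in 14.1% of all 32851 windows. The Jund window, chr8:70697489-70697788, follows the RefSeq start and ends before the GENCODE gene, which begins at 70698949. TGACGTCA was found in 1 window of Maff and in 1.79% of all windows. TGANTCA and the CArG box were found in 0 windows of the members, and in 7.81% and 1.63% of all windows. Sites farther from the start were not searched, so a member without a match may hold one there. A match is a match of letters only, and none of these windows was measured for binding.

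Junb, whose protein is a weaker transactivator than c-JUN at many sites, lies at chr8:84974484-84978718. Its levels were 121 TPM in experiment A, 86.6 in B, 199 in C and 216 in D in repeat DMSO, and 113 in A, 75.2 in B, 158 in C, 119 in D and 119 in E in repeat ibrutinib. Single DMSO libraries held 82.8 TPM in A, 85.7 in B, 184 in C, 77.5 in D and 83.6 in F, and single ibrutinib libraries 95.9 in A, 90.2 in B, 120 in C and 57.9 in D. All groups overlapped. Junb was not called in any comparison, with log2 fold changes of 0.40 for repeat against single peptide with DMSO (SE 0.340, edgeR adjusted p = 0.335) and -0.26 for ibrutinib in repeat peptide stimulated cells (SE 0.340, edgeR adjusted p = 0.707). Without the single DMSO library of experiment C, the value for repeat against single peptide with DMSO was 0.76 and called (edgeR adjusted p = 0.0439). In repeat peptide stimulated cells Junb was lower with ibrutinib in 4 of 4 experiments, by 0.08 to 0.75 in log2 CPM. With the experiment as a block the value was -0.40 and not called (SE 0.216, edgeR adjusted p = 0.241).

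Jund, the JUN gene that resting cells also express, lies at chr8:70698949-70700616. It stood at 275 TPM in experiment A, 271 in B, 273 in C and 317 in D in repeat DMSO, and at 203 in A, 197 in B, 188 in C, 158 in D and 206 in F in single DMSO. These groups did not overlap, which held for 41.4% of all genes and for 3 members, the others being Batf3 and Jun. The log2 fold change of 0.42 was called (SE 0.116, edgeR adjusted p = 0.00549) and was small beside that of Jun. With ibrutinib, Jund stood at 307 TPM in A, 248 in B, 239 in C, 261 in D and 220 in E in repeat peptide stimulated cells, and at 259 in A, 219 in B, 191 in C and 162 in D in single peptide stimulated cells. These values overlapped with those of the DMSO libraries. Neither ibrutinib effect was called, at -0.04 in repeat (SE 0.116, edgeR adjusted p = 0.866) and 0.21 in single peptide stimulated cells (SE 0.116, edgeR adjusted p = 0.473).

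Batf3, known for its role in dendritic cells and also expressed in activated T cells, lies at chr1:191097847-191108945. Repeat DMSO libraries held 33.4 TPM of Batf3 in experiment A, 35.2 in B, 53.2 in C and 105 in D. Repeat ibrutinib libraries held 4.69 in A, 4.69 in B, 12.2 in C, 32.9 in D and 0.940 in E. In TPM these groups were just apart, with 33.4 as the lowest DMSO and 32.9 as the highest ibrutinib value, whereas in normalized counts they overlapped through experiment D. In single DMSO the values were 0.110 TPM in A, 0.0900 in B, 0 in C, 0.280 in D and 0.110 in F, and in single ibrutinib 0.440 in A, 0 in B, 0.260 in C and 0.970 in D. Batf3 was near 0 without peptide in the later culture and present in every repeat peptide library. The summed Batf3 counts were 2374 in repeat DMSO and 5 in single DMSO, a ratio of 510 after scaling for library size (95% exact interval 218 to 1571, for counting error only). With ibrutinib the sums were 889 and 21, a ratio of 33.8 (22.0 to 54.8), against 24.0-fold in the fit. Experiment D gave 692 of the 889 and 14 of the 21 counts. Its repeat ibrutinib library was the deepest of all, with 51995372 expected counts, and so weighs more in the sum. It was also the highest after scaling, with 386 normalized counts of Batf3 against 15.5 to 125 in the other repeat ibrutinib libraries. The ratio was 11.4 (7.25 to 18.8) without the repeat ibrutinib library of D, 77.7 (37.6 to 194) without the single ibrutinib library of D and 26.2 (12.5 to 66.0) without both, chosen after seeing the data.

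The fitted log2 fold changes of Batf3 for repeat against single peptide were 8.86 with DMSO (SE 1.07, edgeR adjusted p = 2.2e-06) and 4.58 with ibrutinib (SE 0.922, edgeR adjusted p = 0.000624). With ibrutinib, 3 members (Batf3, Fosl1 and Maff) did not overlap between repeat and single peptide in normalized counts, against 34.3% of all genes. Ibrutinib in repeat peptide stimulated cells gave a log2 fold change of -2.21 (SE 0.669), just outside the threshold (edgeR adjusted p = 0.0563). With the experiment as a block, the value was -2.31 and called (SE 0.297, edgeR adjusted p = 9.51e-05). Without the repeat ibrutinib library of experiment D it was -3.35 and called (edgeR adjusted p = 0.00253). Within experiments the difference in log2 CPM was -2.71 in A, -3.15 in B, -2.01 in C and -1.54 in D. Batf3 was therefore lower with ibrutinib in 4 of 4 experiments. On the same scale the 4 DMSO libraries ran from 3.36 to 5.26 (SD 0.83), and the 5 ibrutinib libraries from -0.75 to 3.73. For single peptide the fitted value was 2.07 (SE 1.51, edgeR adjusted p = 0.632), from sums of 5 and 21 counts. The interaction was -4.28 (SE 1.63, edgeR adjusted p = 0.269), and called with the block (-4.48, edgeR adjusted p = 0.0073) and without the repeat ibrutinib library of D (-5.42, edgeR adjusted p = 0.0458).

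The 250 bases before the start of Batf3, at chr1:191098164-191098413 on the plus strand (RefSeq, GRCm38), are shown since Batf3 had the largest fitted change of the members. They contain no match to the searched patterns, hence no capitals, and 76.0% of the bases are G or C, against 61.2% in the Jun sequence above.
Batf3: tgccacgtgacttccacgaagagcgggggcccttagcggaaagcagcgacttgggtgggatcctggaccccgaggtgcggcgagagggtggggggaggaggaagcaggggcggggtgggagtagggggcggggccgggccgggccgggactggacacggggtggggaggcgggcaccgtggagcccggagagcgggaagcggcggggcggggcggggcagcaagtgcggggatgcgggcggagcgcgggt

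Batf, at chr12:85686669-85709087, varied less between groups than Jun and Batf3. Its range was 54.5 to 74.7 TPM in repeat DMSO, 58.3 to 76.7 in repeat ibrutinib, 43.5 to 59.97 in single DMSO and 40.5 to 52.8 in single ibrutinib. The repeat ibrutinib and single ibrutinib libraries were apart in TPM, with means of 65.6 ± 7.35 (SD, n = 5) and 46.5 ± 5.49 (n = 4), and overlapped in normalized counts. Among repeat peptide libraries the experiments A, B, C and D gave 54.5, 74.7, 61.0 and 70.2 TPM with DMSO, and 68.1, 58.3, 65.1 and 76.7 with ibrutinib, and E gave 59.8 with ibrutinib. Batf was not called, with 0.09 for repeat against single peptide with DMSO (SE 0.191, edgeR adjusted p = 0.724) and 0.13 for ibrutinib in repeat peptide stimulated cells (SE 0.192, edgeR adjusted p = 0.739). With ibrutinib, repeat against single peptide gave 0.39 (SE 0.193, edgeR adjusted p = 0.107), and 0.52 and a call without the repeat ibrutinib library of experiment B (edgeR adjusted p = 0.0352). In single peptide stimulated cells Batf was lower with ibrutinib in 4 of 4 experiments, by 0.06 to 0.48 in log2 CPM, but the fitted -0.18 was not called (SE 0.192, edgeR adjusted p = 0.789).

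The make-up of each family followed these levels. Jun made up 3.88% ± 1.19 of the summed TPM of Jun, Junb and Jund in repeat DMSO (SD, n = 4), 10.1% ± 2.39 in repeat ibrutinib (n = 5), 19.3% ± 4.39 in single DMSO (n = 5) and 14.9% ± 2.97 in single ibrutinib (n = 4). The range of this share was 2.87 to 5.56% in repeat DMSO and 7.88 to 13.3% in repeat ibrutinib, so these groups did not overlap. Jund made up more than any other gene of the family in each group, with mean shares from 53.4 to 63.1%. Batf3 made up 44.1% ± 12.1 of the summed TPM of Batf and Batf3 in repeat DMSO, 12.3% ± 11.2 in repeat ibrutinib, 0.225% ± 0.183 in single DMSO and 0.966% ± 1.00 in single ibrutinib. Among Fos, Fosb, Fosl1 and Fosl2, the share of Fosl2 averaged 56.3 to 65.8% in the 4 groups but ranged from 6.09 to 90.4% between single DMSO libraries. These shares describe RNA, and no protein or dimer was measured.

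**Figure D4:**
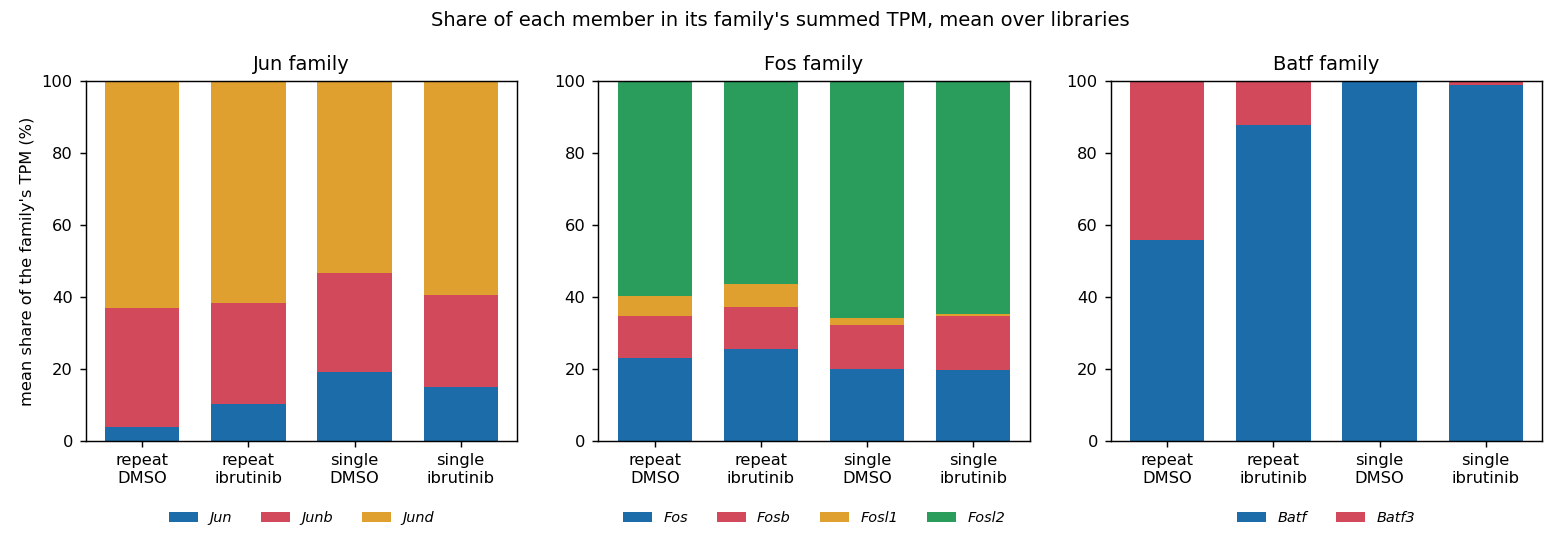
Mean share (y axis, percent) of each member in the summed TPM of its family, by group (x axis), for the Jun, Fos and Batf families. The Jun share is smallest in repeat DMSO, at 3.88%, and the Batf3 share is largest there, at 44.1%.

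Fos and Fosb, the members induced most rapidly by stimulation, lie at chr12:85473890-85477273 and chr7:19302696-19310051. Their levels separated experiments more than groups. In experiment C, Fos stood at 13.8 TPM in repeat DMSO, 20.9 in repeat ibrutinib, 37.0 in single DMSO and 24.0 in single ibrutinib. In E the single library held 10.1 TPM, and the other 13 libraries lay between 0.230 and 4.27. Fosb had 8.84, 13.4, 20.8 and 22.6 TPM in the same 4 libraries of experiment C, 3.37 in E and at most 2.14 in the others. For both genes experiment C was the highest in each of the 4 groups, which held for 1.88% of all tested genes, and in normalized counts Fosb was also above every other library in all 4 libraries of C, which held for 0.139% of genes.

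In a list of 11 immediate early and handling genes, 3 (Egr1, Dusp1 and Zfp36) were highest in experiment C in every group, and 8 were not, among them Egr2, Ier2, Nr4a1 and Atf3. Btg2 stood at 38.6 to 43.8 TPM in C and at 27.9 to 90.6 elsewhere. Dusp1, which encodes a MAP kinase phosphatase, stood at 26.2 to 39.2 TPM in experiment C and at 3.60 to 10.7 in all other libraries, and it was the 1 gene of the list above every other library there. Whether the levels of these 3 genes and those of Fos and Fosb have a common source was not tested. The heat shock genes Hspa1a and Hspa1b of the same list stood at 0.0400 to 1.29 and 0.160 to 1.80 TPM in C. Elsewhere they stood at 0 to 12.9 and 0.0800 to 11.2 TPM.

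**Figure D5:**
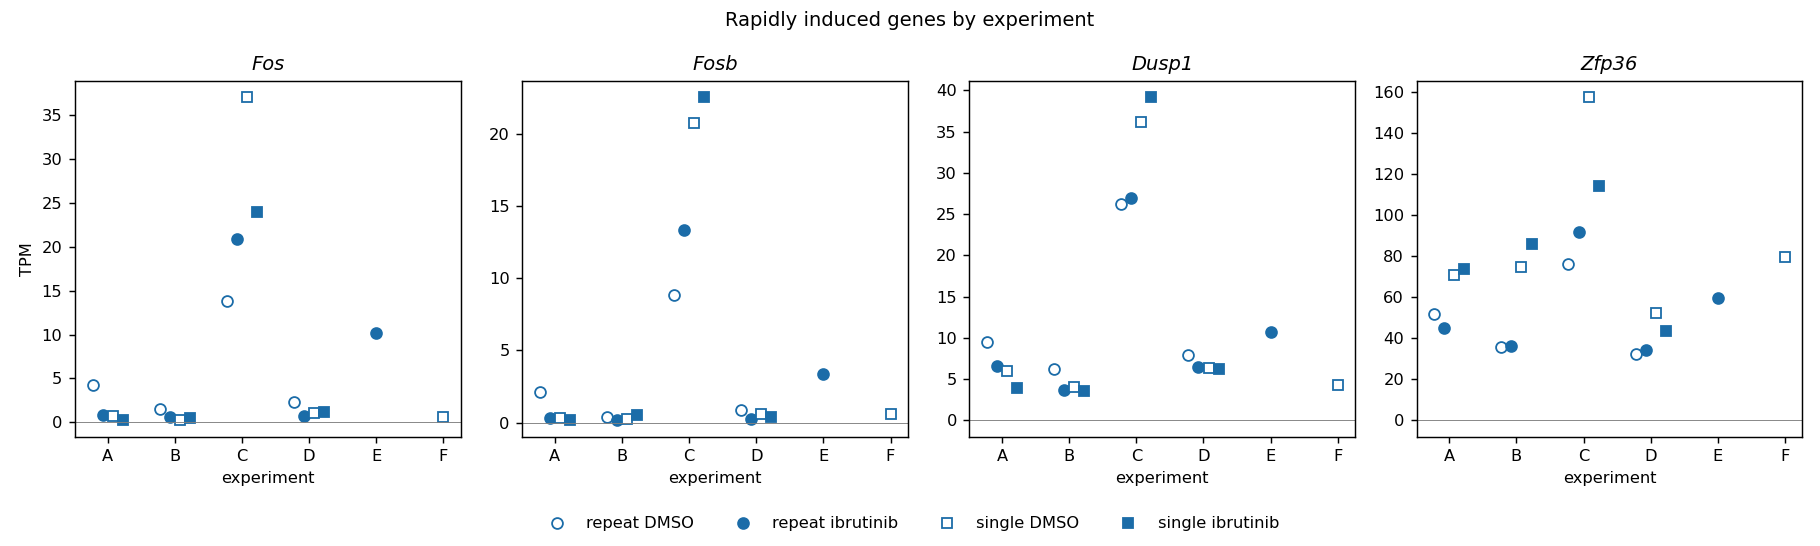
TPM (y axis, linear) of Fos, Fosb, Dusp1 and Zfp36 by experiment (x axis), with circles for repeat and squares for single peptide stimulated cells, open for DMSO and filled for ibrutinib. All 4 libraries of experiment C lie above the others for Dusp1, at 26.2 to 39.2 TPM, and the library of E comes next for Fos, at 10.1 TPM.

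Neither Fos nor Fosb was called in any comparison. For ibrutinib in repeat peptide stimulated cells the log2 fold changes were 0.58 for Fos (SE 1.70, edgeR adjusted p = 0.884) and 0.40 for Fosb (SE 1.77, edgeR adjusted p = 0.925). The signs turned with the experiments used. With the experiment as a block the values were -1.44 (edgeR adjusted p = 0.23) and -1.28 (edgeR adjusted p = 0.262), and without C and E they were -1.91 (edgeR adjusted p = 0.199) and -2.08 (edgeR adjusted p = 0.117). Within experiments, Fos differed by -2.22 in A, -1.56 in B, 0.77 in C and -1.55 in D in log2 CPM, so that it was lower with ibrutinib in 3 of 4 experiments. Fosb differed by -2.56 in A, -1.25 in B, 0.71 in C and -1.57 in D. For repeat against single peptide with DMSO, Fos gave -0.85 (SE 1.71, edgeR adjusted p = 0.696) and 1.92 without C and E (edgeR adjusted p = 0.0259, with a mean normalized count below the minimum). At this spread between experiments, no direction can be given for Fos or Fosb in any of the 5 comparisons.

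Fosl2, which encodes FRA-2, lies at chr5:32135801-32157842. Repeat DMSO libraries held 9.87 TPM in experiment A, 8.56 in B, 11.6 in C and 11.4 in D, and single DMSO libraries 5.73 in A, 5.74 in B, 3.80 in C, 3.4 in D and 7.87 in F. In TPM these groups were apart, and in normalized counts they overlapped. The log2 fold change for repeat against single peptide with DMSO was 0.73 and called (SE 0.198, edgeR adjusted p = 0.00444), and it was 0.59 and not called without experiment C (edgeR adjusted p = 0.0552). Repeat ibrutinib libraries held 9.08 TPM in A, 12.2 in B, 6.88 in C, 5.45 in D and 3.65 in E, and single ibrutinib libraries 4.93 in A, 7.14 in B, 3.98 in C and 4.11 in D. With ibrutinib Fosl2 was lower in C and D and close to the DMSO level in A, with within-experiment differences of -0.09 in A, 0.35 in B, -0.63 in C and -0.86 in D, and the fitted -0.39 was not called (SE 0.198, edgeR adjusted p = 0.255). With ibrutinib in both, repeat against single peptide gave 0.31 (SE 0.2002, edgeR adjusted p = 0.229), which was 0.40 and called with the block (edgeR adjusted p = 0.034).

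Fosl1, which encodes FRA-1 and lies at chr19:5447547-5455946, was scarce. Its level was 0.660 to 1.15 TPM in repeat DMSO, 0.510 to 1.80 in repeat ibrutinib, 0 to 0.830 in single DMSO and 0 to 0.0800 in single ibrutinib. The counts in single ibrutinib summed to 4 over 4 libraries, against 176 in repeat ibrutinib, a ratio of 35.1 (95% exact interval 13.5 to 130). The adjusted p of this comparison was 0.000598 with edgeR, but the mean normalized count of 19.7 kept Fosl1 from being called. Against single DMSO, with 43 counts of which 26 came from experiment C, the ratio of single DMSO to single ibrutinib was 10.1 (3.67 to 38.7). Both intervals cover counting error only, while the single DMSO libraries ran from 0 to 26 counts. The fitted difference between single ibrutinib and single DMSO had an edgeR adjusted p of 0.111 and was not called.

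Maff, at chr15:79346621-79359076, had 0.70 to 2.45 TPM in repeat DMSO, 1.08 to 1.89 in repeat ibrutinib, 0.450 to 1.96 in single DMSO and 0.450 to 1.02 in single ibrutinib. Ibrutinib libraries of repeat and of single peptide stimulated cells were apart, with 0.89 on the log2 scale (SE 0.418, edgeR adjusted p = 0.0952). With DMSO the groups overlapped, through the repeat DMSO library of experiment B at 0.70 TPM and the single DMSO library of B at 1.96 TPM. The fitted 0.79 was not called (SE 0.409, edgeR adjusted p = 0.11), and it was 1.04 and called without the repeat DMSO library of B (edgeR adjusted p = 0.04), which also raised the mean count over the minimum.

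Other bZIP genes, among them possible partners of the members, were given by a list of 22, of which 20 passed the filter. This list and those that follow were chosen with earlier results of these data known. Beside their counts stand the shares of all genes called in either direction. These were 5.92% for ibrutinib in repeat, 3.04% in single and 1.26% for the interaction. For repeat against single peptide they were 47.0% with DMSO and 38.4% with ibrutinib. In repeat peptide stimulated cells ibrutinib raised 1 and lowered 3 of the 20, with a median log2 fold change of -0.07 beside 0.00 for all genes, and 16 did not pass. Atf3, a stress-induced factor, fell by 2.07 on the log2 scale (SE 0.504, edgeR adjusted p = 0.0178). Bach1, a repressor that pairs with small MAF proteins such as MAFF, rose by 1.02 (SE 0.208, edgeR adjusted p = 0.00547), while Atf4 (-0.61) and Nfil3 (-0.55) were lower. The count of 4 was 7 with the block, 1 without the repeat DMSO library of C or that of D, and 2 without the repeat ibrutinib library of A. In single peptide stimulated cells edgeR and DESeq2 called 0 of the 20, and 0 had an unadjusted p under 0.05. For repeat against single peptide with DMSO, 4 rose and 5 fell (median 0.14, all genes 0.00), led by Atf3 (5.29), Maf (-3.94), Bach1 (-1.84) and Nfil3 (1.82). With ibrutinib, 6 rose and 5 fell (median 0.03, all genes -0.02), led by Atf3 (4.03), Maf (-2.27), Nfil3 (1.43) and Jdp2 (1.42). For the interaction 0 of 20 were called by edgeR or DESeq2, 1 had an unadjusted p under 0.05, and 1 (Bach1) was called with the block.

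The MAP kinase route to Fos and Jun was given by 17 genes, all of which passed the filter. Ibrutinib in repeat peptide stimulated cells lowered 1 of them, Elk3, in a range of log2 fold changes from -0.53 to 0.29 (median -0.03, all genes 0.00). With the block 3 were called, the others being Map2k7 and Rasgrp1. In single peptide stimulated cells edgeR and DESeq2 called 0, 1 had an unadjusted p under 0.05, and the range was -0.20 to 0.26 (median 0.06, all genes 0.01). Between repeat and single peptide, 3 rose and 5 fell with DMSO (median 0.00, all genes 0.00), with the largest changes in the ETS factor gene Elk3 (1.39), the ERK1 gene Mapk3 (1.15), Elk4 (-1.05) and Rasgrp1 (-0.94), whose protein activates RAS. With ibrutinib 2 rose and 5 fell (median -0.16, all genes -0.02), led by Mapk3 (0.98), Elk3 (0.68), Rasgrp1 (-0.68) and Srf (-0.67). The interaction called 1, again Elk3, in a range from -0.71 to 0.48 (median -0.10, all genes 0.02). These are RNA levels of kinases and factors whose activity is set by phosphorylation, which RNA-seq does not measure.

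Of 5 partners at composite sites, the BATF partners Irf4 and Irf8 were lower with ibrutinib under both kinds of stimulation. Among all genes, 5.92% were called for ibrutinib in repeat, 3.04% in single and 1.26% for the interaction. Between repeat and single peptide 47.0% were called with DMSO and 38.4% with ibrutinib. In repeat peptide stimulated cells Irf4 fell by 1.303 (SE 0.186, edgeR adjusted p = 0.000373) and Irf8 by 1.02 (SE 0.238, edgeR adjusted p = 0.0137), with a list median of -0.27 (all genes 0.00). The count of 2 was 1 without the repeat DMSO library of D. With single peptide, Irf8 fell by 2.91 (SE 0.282, edgeR adjusted p = 5.03e-05) and Irf4 by 0.95 (SE 0.194, edgeR adjusted p = 0.0107), with a median of -0.13 (all genes 0.01), and 1 was called without the single ibrutinib library of A or that of D. Irf4 was lower with ibrutinib in 4 of 4 experiments in both. With DMSO all 5 differed between repeat and single peptide, 3 higher and 2 lower (median 0.60, all genes 0.00), with Irf8 at 2.85, Irf4 at 2.42, Nfatc1 at 0.60 and Nfatc2 at -0.47. With ibrutinib 2 were higher and 1 was lower (median 0.24, all genes -0.02), namely Irf8 (4.73), Irf4 (2.07) and Nfatc3 (-0.52). The interaction called 1 of 5, Irf8 (range -0.35 to 1.89, median -0.19, all genes 0.02), and 2 with the block.

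A list of 13 genes with known AP-1 sites in activated T cells had 11 that passed the filter, with Il2 and Il3 too low. It was chosen with earlier results of these data known. For all genes, the share called was 47.0% between repeat and single peptide with DMSO and 38.4% with ibrutinib. That share was 5.92% for ibrutinib in repeat, 3.04% in single and 1.26% for the interaction. Ibrutinib lowered 3 of 11 in repeat peptide stimulated cells (median -0.96, all genes 0.00), namely Ifng (-1.78), Gzmb (-1.12) and Il2ra (-0.96). The count was 5 with DESeq2, 5 without the repeat DMSO library of B and 1 without that of D. In single peptide stimulated cells it lowered 6 of 11 (median -1.41, all genes 0.01), with Ccl3 (-5.41), Ccl4 (-3.02), Ifng (-2.51) and Tnfrsf9 (-2.02) first. The value of Ccl3 rests on 6 counts in single ibrutinib against 292 in single DMSO. The ratio of single DMSO to single ibrutinib was 45.7 (95% exact interval 20.7 to 125, for counting error only). Repeat peptide stimulated cells were higher than single peptide stimulated cells for 9 of 11 with DMSO (median 3.04, all genes 0.00), with Tnfrsf4 (4.603), Ifng (4.04), Csf2 (3.72) and Tnfrsf9 (3.67) first, and for 10 of 11 with ibrutinib (median 3.64, all genes -0.02), with Ccl3 (7.84), Ccl4 (5.94), Ifng (4.77) and Tnfrsf9 (4.66) first. The interaction called Ccl3 (4.79) and Ccl4 (3.16), 2 of 11 (median 0.67, all genes 0.02). Jun was thus lowest in the repeat DMSO libraries, in which most genes of this list were higher than in single DMSO, and the relation between them was not tested.

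Of the 11 immediate early and handling genes, ibrutinib lowered 4 in repeat peptide stimulated cells (median 0.01, all genes 0.00), namely Hspa1a (-3.58), Hspa1b (-2.57), Atf3 (-2.07) and Nr4a1 (-1.42), and 1 without the repeat DMSO library of D. That library had 856 normalized counts of Hspa1a and 697 of Hspa1b, against 54.3 to 90.7 and 50.3 to 136 in the other repeat DMSO libraries. Without it the log2 fold changes were -1.76 for Hspa1a (edgeR adjusted p = 0.245), -1.22 for Hspa1b (edgeR adjusted p = 0.21) and -1.73 for Atf3 (edgeR adjusted p = 0.0975), none of them called. Hspa1a and Hspa1b are near-identical copies whose reads may be split wrongly between them, and Atf3 is in the bZIP list as well. Under single peptide 1 rose and 1 fell (median -0.42, all genes 0.01), Btg2 (0.53) and Nr4a1 (-1.50). Leaving out any of 7 of the single peptide libraries brought that count to 0 or 1, namely those of A, B, C and D with DMSO and of A, B and D with ibrutinib. Between repeat and single peptide with DMSO, 6 rose and 1 fell (median 1.83, all genes 0.00), with Hspa1a (5.56), Atf3 (5.29), Nr4a1 (3.52) and Hspa1b (3.50) first. Without the repeat DMSO library of D, 4 were called. There Hspa1a was 3.74 (edgeR adjusted p = 0.00124) and Hspa1b 2.17 (edgeR adjusted p = 0.00172). Both were kept from a call by the minimum on the mean count. With ibrutinib 5 rose and 2 fell (median 1.22, all genes -0.02), with Atf3 (4.03), Nr4a1 (3.59), Egr2 (3.28) and Hspa1a (3.03) first. The interaction called 0 with edgeR and DESeq2 (median -0.23, all genes 0.02), and 2 had an unadjusted p under 0.05.

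For the members called in at least 1 comparison, the genes of the most similar profile were found by the root mean square difference in centred log2 CPM over 18 libraries. Those of Jun were Fsd2 (0.44) and Itgb7 (0.45), an integrin gene whose mean level was 152 TPM in repeat DMSO, 320.1 in repeat ibrutinib, 482 in single DMSO and 495 in single ibrutinib. For comparison, the root mean square spread of Jun itself was 0.91. Those of Batf3 were Exph5 (0.74) and Slc16a11 (0.81), against a spread of 3.09 for Batf3. Slc16a11, a monocarboxylate transporter family gene, had mean levels of 18.3 TPM in repeat DMSO, 3.28 in repeat ibrutinib, 0 in single DMSO and 0.0650 in single ibrutinib. Those of Jund were Dpp3 (0.11) and Drg2 (0.12), against a spread of 0.22. Those of Fosl2 were Rad54l2 and Zmym3 (both 0.19), against a spread of 0.40.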

How the data were processed

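RNA-seq of polyadenylated RNA was made from 18 cultures of mouse CD8+ T cells. The authors trimmed the reads with Trim Galore, aligned them to GRCm38 with STAR in RSEM 1.3.1 and deposited a gene table per library (SAMtools 1.10, R 4.0.3 and DESeq2 1.30.0 are also in the submitters' processing notes). Its expected counts are the authors' estimated reads per gene. Its TPM, scaled by the authors to the same sum in every library, were used for levels only. The effective length, another column the authors deposited, served in an alternative.

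Expected counts were rounded. Of 45706 genes, 45143 matched GENCODE M21, and 27903 protein-coding or lncRNA genes were kept (98.5% of counts). With R 4.3.3, edgeR 4.0.16 and limma 3.58.1, the 12255 genes passing filterByExpr were normalized by TMM and fitted in all 4 groups together (glmQLFit, robust, and glmQLFTest, Benjamini-Hochberg). The 5 comparisons, thresholds and the rule for named genes are as in the text: all 10 members, per list at most 4 called genes with the largest change, and the 2 genes most similar to each called member. Members and lists were chosen with earlier results of these data known. Total counts of 23445922 to 51995372 make counting error small except at a few counts, and intervals cover counting error only. Scripts were tested on simulated data.

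Deviations from group means correlated in all 24 pairs of libraries of the same experiment (0.16 to 0.494), against -0.44 to 0.404 (median -0.076) in 97 others, so the experiment named in the genotype entry pairs the libraries. It is a block only in an alternative. Other alternatives were DESeq2 1.42.0 (Wald test or size factors), no filter, all gene types, only the compared groups, an effective-length offset, other thresholds and each library left out. Leaving out experiments C, E or both was added after seeing the data. No protein sequence was used here. A few genes are not reported here.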

Additional observations from a re-analysis of the deposited data

Results flagged for a closer look

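Single libraries that stood far from the others of their group were looked for with Dixon's criterion in 40 sets of TPM values, each a member in a group, of which chance would pick about 1 in 20. It picked 8, of which 6 were libraries of experiment C. In single DMSO, experiment C stood at 37.0 TPM for Fos (the others 0.240 to 1.04), 20.8 for Fosb (0.280 to 0.610) and 184 for Junb (77.5 to 85.7). In single ibrutinib it stood at 24.0 TPM for Fos (0.230 to 1.17) and 22.6 for Fosb (0.15 to 0.520), and in repeat ibrutinib at 13.4 for Fosb (0.170 to 3.37). The libraries outside experiment C were Jund in repeat DMSO of D, at 317 TPM (271 to 275), and Maff in single DMSO of B, at 1.96 TPM (0.450 to 0.850).

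The fitted ibrutinib effects on Jun had opposite signs with repeat and with single peptide. That with single peptide was not called (-0.35, SE 0.302, edgeR adjusted p = 0.712). Jun was higher with ibrutinib in 4 of 4 experiments with repeat peptide and lower in 4 of 4 with single peptide. The test of the difference itself gave 1.67 on the log2 scale (edgeR adjusted p = 0.0702, over the alternatives 0.00332 to 0.173), so the difference passed the threshold under some settings only.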

How the results depend on the processing

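Over 1141 alternative values of the members' fold changes and counts, the 6 called fold changes kept their sign in all 114 alternatives and their call in 112. Jun was not called for ibrutinib in repeat peptide stimulated cells without the repeat DMSO library of D, and Fosl2 was not called for repeat against single peptide with DMSO without experiment C.

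The number of members called for ibrutinib in repeat peptide stimulated cells was 2 with the replicate block in place of 1, and 0 to 2 leaving out each library. For repeat against single peptide with DMSO it was 2 in place of 4 above an absolute log2 fold change of 1, and 4 to 5 leaving out each library. With ibrutinib it was 2 in place of 1 with the block and with no threshold on the mean count (which adds Fosl1), and 1 to 2 leaving out each library. For the interaction it was 2 with the block in place of 0, 1 with DESeq2, without experiment C and without C and E, and 0 to 1 leaving out each library. In single peptide stimulated cells it was 0 under every alternative. Apart from the changes given here and beside the results, the block changed no call of a member.

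Only fold changes that were not called reversed. In repeat peptide stimulated cells with ibrutinib, Fos was -1.44 and Fosb -1.28 with the block. Without C and E, Fos was -1.91, Fosb -2.08, Batf -0.012 and Fosl1 -0.058, and without C Fosl1 was -0.11. In single peptide stimulated cells without C, and without C and E, Fos was 0.11 in both, Fosb -0.39 in both and Fosl2 -0.023 and -0.022. For repeat against single peptide with DMSO, Fos was 0.92 with the block, 1.91 without C and 1.92 without C and E, and Fosb 0.41, 1.03 and 1.04. With ibrutinib, Fos was 2.52 and Fosb 1.81 without C. For the interaction, Fos was -1.23 with the block and -2.01 without C and E, Fosb 0.78 without C, and Maff -0.033 without E. The cause of these reversals was not tested.

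Leaving out each library gave these ranges where the sign turned. For ibrutinib in repeat peptide stimulated cells, Jund -0.11 to 0.042, Fos -0.33 to 1.62, Fosb -1.11 to 1.89, Fosl1 -0.20 to 0.27 and Maff -0.38 to 0.13. In single peptide stimulated cells, Junb -0.40 to 0.26, Fos -3.72 to 3.71, Fosb -3.76 to 3.98, Fosl2 -0.089 to 0.20 and Maff -0.38 to 0.23. For repeat against single peptide with DMSO, Batf -0.014 to 0.19, Fos -1.89 to 2.93 and Fosb -2.33 to 2.51. With ibrutinib, Fos -1.10 to 3.46 and Fosb -2.58 to 3.33. For the interaction, Junb -0.52 to 0.15, Fos -3.13 to 4.32, Fosb -3.58 to 4.18 and Maff -0.36 to 0.39.

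Over all genes, the 726, 373 and 154 calls for ibrutinib in repeat, in single and for the interaction were 1694, 1114 and 679 with the block, and 405, 179 and 58 without C. The first 2 were 464 and 181 in fits of only the compared groups. DESeq2 gave 1165, 612 and 350. Without C and E there were 329, 224 and 59. Fosl1, Maff and Batf3 in single peptide libraries are limited by depth, with 0 to 26 counts a library for Fosl1 and 0 to 14 for Batf3. TPM and TMM-scaled CPM gave the same direction in 39 of 40 cases, the exception being Fosl2 with ibrutinib in single peptide stimulated cells. The shares within families moved by less than their SD on counts per effective length, and the correlation of libraries of the same experiment was 0.106 or higher over the 2000 most variable genes.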
